A study of Mus musculus with 12 samples.

Results

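Heme synthesis and breakdown were followed in mouse liver through 9 genes, taken by symbol from the deposited tables: Alas1, Alad, Uros, Urod, Cpox, Ppox and Fech of the synthetic pathway, and Hmox1 and Blvrb of breakdown. They are 9 of the 51912 genes counted, and all 9 were among the 8594 genes that passed the expression filter and were tested. The 12 livers came from male mice on a C57BL/6NTac background, 3 in each of 4 groups, and each was sequenced from the 3' ends of its mRNA. WT mice received corn oil, the vehicle, or CITCO, an agonist of the human nuclear receptor CAR. hCAR/hPXR mice, which carry human CAR and human PXR in place of the mouse receptors, and Car KO/hPXR mice, which lack Car and carry human PXR, received CITCO alone. Injections were intraperitoneal and daily for 4 days, and tissue was collected on day 5; the labels put CITCO at 10 mg/kg. The corn oil livers analysed here were all from WT mice, so in either humanised line the effect of CITCO and that of the genotype cannot be told apart.

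Heme is assembled in steps divided between the mitochondrion and the cytosol. Alas1, 5-aminolevulinate synthase, carries out the first step and sets the rate in liver, where its transcription is restrained by heme itself and is raised by many drugs that also induce cytochrome P450 enzymes, which hold heme at their active site. Heme oxygenase, encoded by Hmox1, opens the ring and releases iron, carbon monoxide and biliverdin, which biliverdin reductases then reduce.

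On GRCm38, with the GENCODE M21 annotation, Alas1 lies on the minus strand of chromosome 9 (106233455 to 106248654). A stretch of its promoter is shown because Alas1 was the member that changed; it was read from RefSeq's promoter windows (GRCm38.p6; 250 bases before to 50 bases after each gene start), which covered 7 of the 9 members. The capitals mark GCGCATGCGC, the longest perfect palindrome in the 2 windows of Alas1, which is the recognition sequence of the transcription factor NRF-1. With 10 bases on either side it spans chr9:106247906-106247935, and it is written in the direction of transcription.
Alas1: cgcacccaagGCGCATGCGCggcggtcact
The palindrome began 29 bases after one of 2 annotated starts of Alas1 and 195 bases before the other. It was present in 0.971% of the 32851 promoter windows of all genes and, among the 7 members with a window, in Alas1 alone. The letters AGGTCA, a core to which many nuclear receptors bind, were searched on both strands and were in 16.3% of all windows and in 0 of these 7 members. At such a share, 0 of 7 says little about these genes. Sites outside the windows, and sites that differ from these letters, were not searched.

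Libraries held between 1167027 and 2341572 counts, so that the members with low counts were measured with little precision. The engineered receptors followed the labels: reads were counted on mouse genes, and mouse Car (Nr1i3) was at 72.6 to 144 CPM, which are counts scaled to a fixed library size, in the 6 WT livers and at no more than 4.95 CPM in the 6 humanised livers. Mouse Pxr (Nr1i2) was at 69.8 to 92.5 CPM in the WT livers and at no more than 1.25 CPM in the others. The hepatocyte markers, 8 genes that include Alb and Ttr, summed to 23179 to 38247 CPM in hCAR/hPXR livers, with a median of 24000. They summed to 30958 to 36266 CPM in corn oil, 29106 to 37497 in WT CITCO and 33563 to 36323 in Car KO/hPXR livers. Neutrophil markers summed to 33.2 to 49.5 CPM in hCAR/hPXR livers and to 2.78 to 10.7 CPM in the other 9, with Mpo and Elane at 0 in all 12. In hCAR/hPXR livers S100a8 and S100a9 had means of 22.7 and 14.3 CPM, and Ly6g and Retnlg 0.616 and 1.38 CPM. S100a8 was called higher in hCAR/hPXR livers against each other group, and S100a9 against corn oil. In those comparisons 0.407% to 0.989% of all genes were called. Endothelial markers summed to 181 to 235 CPM, stellate cell markers to 176 to 346 CPM and cholangiocyte markers to 7.65 to 22.0 CPM over the 12 livers. Of the markers of these last types 0 were called in any comparison, where 0.0465% to 0.989% of all genes were called. In whole tissue, fewer cells of a type and less RNA per cell cannot be told apart.

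Alas1 was the member that varied with the groups. In the WT corn oil livers it stood at 184, 51.0 and 127 CPM, a mean of 121 ± 66.9 (SD, n = 3), from 416, 73 and 213 counts. In the WT CITCO livers it stood at 472, 265 and 483 CPM, a mean of 406 ± 123. The lowest of the CITCO livers was above the highest of the corn oil livers, an absence of overlap that 14.7% of all genes showed. In the hCAR/hPXR livers Alas1 was at 371, 414 and 242 CPM, and in the Car KO/hPXR livers at 286, 260 and 236 CPM. Each of the 9 livers exposed to CITCO was thus above each corn oil liver, and the 3 Car KO/hPXR livers lay closest together. In a test of any difference among the 4 groups, Alas1 had an adjusted p of 0.0336 (quasi-likelihood F test of edgeR, adjusted by Benjamini and Hochberg's method over all genes tested), where 1.42% of all genes passed; with 1 library left out, it passed in 3 of 12 fits, with adjusted p up to 0.116. None of the other 8 members passed, with adjusted p from 0.649 for Hmox1 to 0.945 for Alad.

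**Figure D1:**
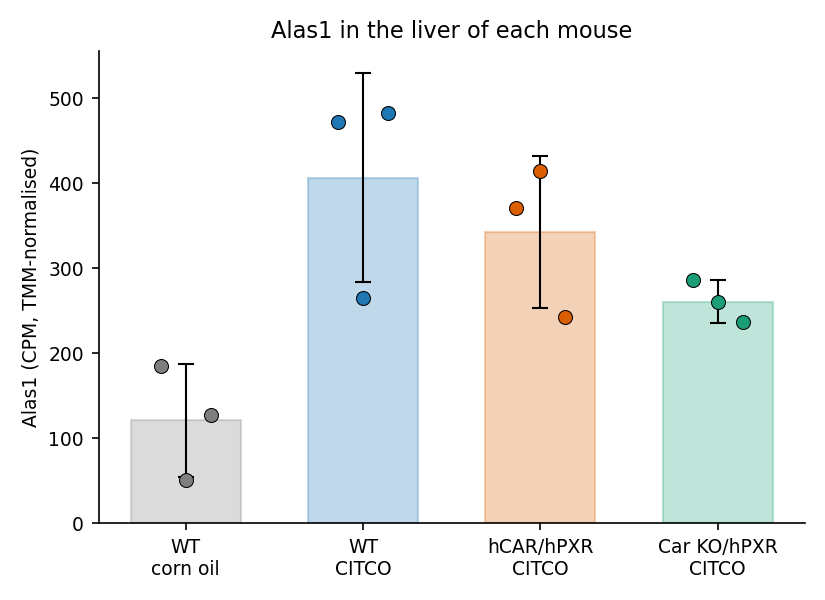
Alas1 in each liver, as CPM after TMM normalisation (vertical axis), for the 4 groups (horizontal axis). Points are single mice, bars are group means and error bars are SD (n = 3); all 9 livers given CITCO were at 236 CPM or more, and the 3 corn oil livers at 184 CPM or less.

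The effect of CITCO was first asked in WT mice, the only genotype with a vehicle group here. Alas1 rose 3.33-fold in WT CITCO over WT corn oil livers (log2 fold change 1.73, SE 0.32, 95% interval 1.05 to 2.41, adjusted p = 0.0264). A gene was called at an adjusted p under 0.05 and a fold change over 1.5. Alas1 was the 1 member of 9 called, where 0.233% of all genes tested were called, and it was also the 1 member with an unadjusted p under 0.05, against 9.13% of all genes. The call held with DESeq2 (log2 1.75, adjusted p = 0.0157) and was lost in a fit of these 2 groups alone (log2 1.73, adjusted p = 0.0574). It was also lost without WT corn oil replicate 2 (log2 1.39, adjusted p = 0.0845), without WT corn oil replicate 3 (log2 1.76, adjusted p = 0.151) or without WT CITCO replicate 1 (log2 1.61, adjusted p = 0.204).

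In hCAR/hPXR CITCO over WT corn oil livers, Alas1 rose 2.81-fold (log2 fold change 1.49, SE 0.32, 95% interval 0.81 to 2.17, adjusted p = 0.0292), again the 1 member called, against 0.989% of all genes, and the 1 with an unadjusted p under 0.05, against 10.9%. This difference holds both the genotype and the treatment. Its call was lost in a fit of these 2 groups alone (log2 1.49, adjusted p = 0.0527), without WT corn oil replicate 2 (log2 1.13, adjusted p = 0.100) or replicate 3 (log2 1.52, adjusted p = 0.124), and without hCAR/hPXR CITCO replicate 1 (log2 1.42, adjusted p = 0.117) or replicate 2 (log2 1.33, adjusted p = 0.102).

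In Car KO/hPXR CITCO over WT corn oil livers, the Alas1 mean was 2.14 times that of the controls (log2 fold change 1.09, SE 0.32, 95% interval 0.42 to 1.77), with an adjusted p of 0.490. Although these groups did not overlap, as in 11.6% of all genes, the gene was not called, and 0 of 9 members were, where 0.0465% of all genes, 4 in number, were called. At an unadjusted p under 0.05, Alas1 was the 1 member of 9, against 5.6% of all genes, and DESeq2 called 0 members. With no filter on low counts, Alas1 passed here (log2 1.07, adjusted p = 1.00e-05). All 3 of these comparisons share the same corn oil livers, whose Alas1 levels ranged 3.62-fold.

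**Figure D2:**
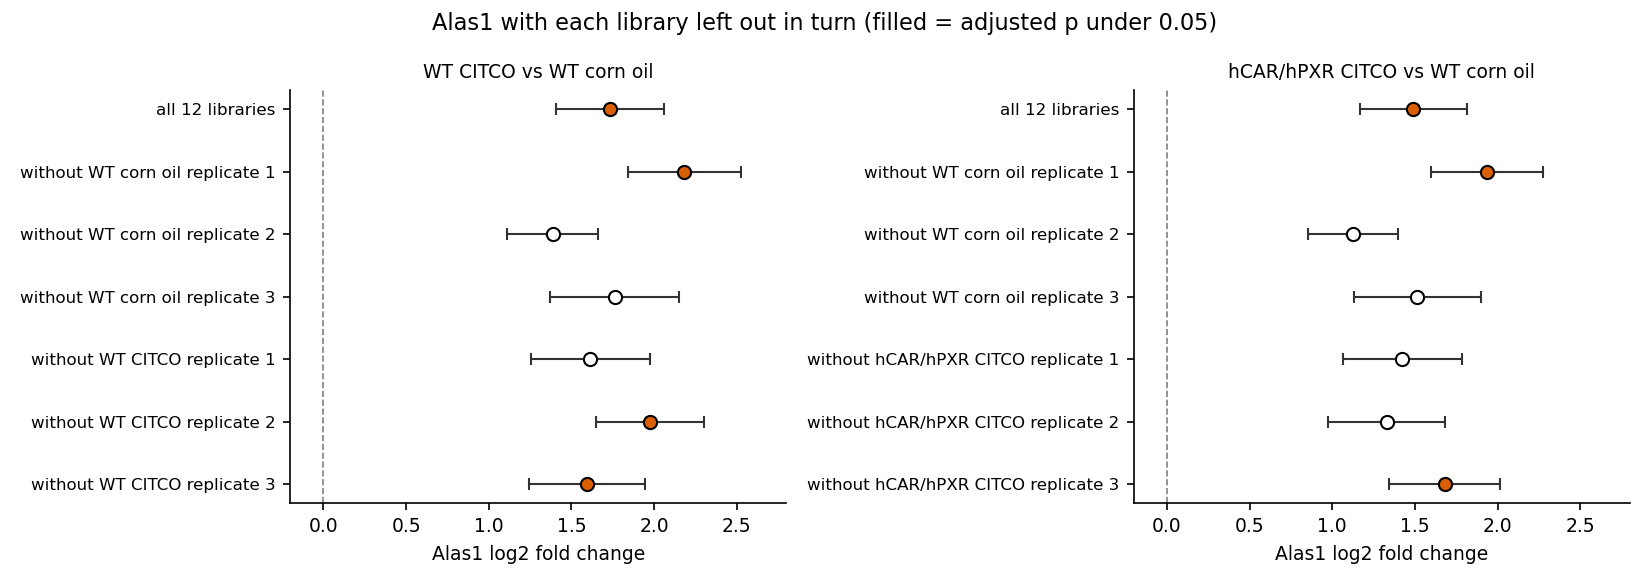
Log2 fold change of Alas1 (horizontal axis) with all 12 libraries and with each of the 6 libraries compared left out in turn (vertical axis); bars are SE and filled points have an adjusted p under 0.05. The estimate ran from 1.39 to 2.18 in WT CITCO against corn oil and from 1.13 to 1.94 in hCAR/hPXR CITCO against corn oil, lowest without WT corn oil replicate 2 in both.

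Between the 3 CITCO groups no difference in Alas1 was called. Levels ordered as WT CITCO, hCAR/hPXR, Car KO/hPXR and then WT corn oil, and no neighbours in that order passed the adjusted test. The first 3 groups overlapped with their neighbours, whereas Car KO/hPXR and corn oil livers did not overlap. The hCAR/hPXR livers were lower than WT CITCO livers by 0.24 on the log2 scale (log2 fold change -0.24, SE 0.31, 95% interval -0.90 to 0.41, adjusted p = 0.871). With 0.407% of all genes called in that comparison, 0 of 9 members were. For Car KO/hPXR against WT CITCO the Alas1 log2 fold change was -0.64 (SE 0.31, 95% interval -1.30 to 0.02, adjusted p = 0.549), with 0 of 9 members and 0.256% of all genes called, although it passed with no filter on low counts (log2 -0.66, adjusted p = 0.0327). For hCAR/hPXR against Car KO/hPXR it was 0.40 (SE 0.31, 95% interval -0.26 to 1.06, adjusted p = 0.733), with 0 of 9 members and 0.582% of all genes called. At an unadjusted p under 0.05 there were also 0 members in each of these 3 comparisons, where 8.81%, 9.3% and 10.6% of all genes were found in the same order, and DESeq2 called 0. Without overlap were 0 members in hCAR/hPXR against WT CITCO (13.7% of all genes) and 0 in hCAR/hPXR against Car KO/hPXR (15.1%).

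The receptors' target genes were distributed otherwise. Of 12 listed CAR and PXR targets, 10 were tested. Of these, 7 were called higher in hCAR/hPXR than in WT CITCO livers (median log2 fold change 1.55, all genes 0.01), where 0.407% of all genes were called. They were Cyp2b10, Cyp2c29, Cyp2c55, Cyp3a11, Cyp3a25, Ces2a and Gstm3. All but Cyp2c55 are among the genes that the study itself lists as raised in this comparison. The list was chosen with earlier results of these data known, so the count is not independent evidence. Cyp2b10, a P450 and the standard reporter of CAR activity, was at 144, 165 and 152 CPM in hCAR/hPXR livers and at no more than 4.11 CPM in the other 9. Alas1, at 242 to 414 CPM in those same hCAR/hPXR livers, was at 265 to 483 CPM in WT CITCO livers. Between WT CITCO and WT corn oil, where Alas1 was called, 0 of the 10 targets were (median log2 fold change 0.17, all genes 0.00), against 0.233% of all genes, and 3 had an unadjusted p under 0.05, all higher, against 9.13% of all genes. Por, the reductase that passes electrons to P450 enzymes and to heme oxygenase, was at 204 to 221 CPM in corn oil, 239 to 350 in WT CITCO and 322 to 489 in hCAR/hPXR livers, and it rose 1.92-fold in the last over the first (adjusted p = 0.00965). Against Car KO/hPXR livers, 3 targets were called higher in hCAR/hPXR livers (median log2 fold change 0.82), where 0.582% of all genes were called. In Car KO/hPXR livers 0 targets were called against either WT group, where 0.0465% (corn oil) and 0.256% (CITCO) of all genes were called. Against corn oil, all 10 were higher there (median log2 fold change 0.66). Of these, 5 had an unadjusted p under 0.05, against 5.6% of all genes. Against WT CITCO, 7 were higher and 3 lower (median log2 fold change 0.41). Here 4 had such a p, all higher, against 9.3% of all genes. The summed level of the 70 P450 genes in the table was 15228 ± 1773 CPM in corn oil, 16567 ± 1135 in WT CITCO, 19549 ± 1270 in hCAR/hPXR and 15839 ± 2242 in Car KO/hPXR livers (SD, n = 3, no test).

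**Figure D3:**
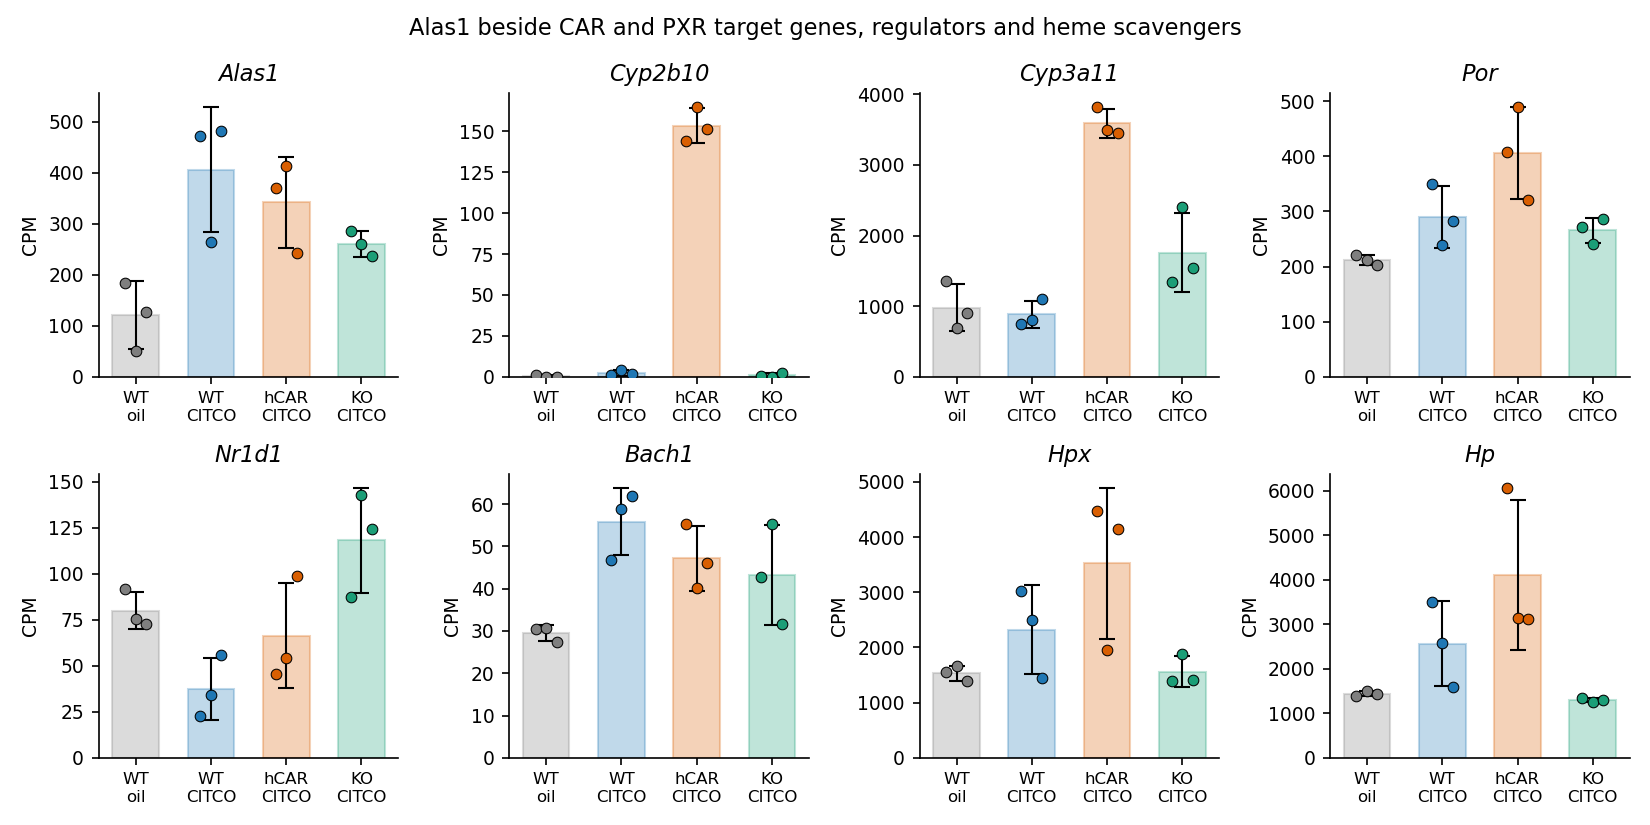
Alas1, 3 targets of CAR and PXR (Cyp2b10, Cyp3a11, Por), 2 regulators (Nr1d1, Bach1) and 2 scavenger genes (Hpx, Hp) in each liver, as CPM (vertical axes, each from 0). Points are mice, bars means and error bars SD (n = 3); Cyp2b10 stood apart in the hCAR/hPXR livers, whereas Alas1 was lowest in the corn oil livers.

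No difference was called for the enzymes that follow Alas1. Alad, which joins 2 molecules of aminolevulinate in the cytosol, ranged from 82.8 to 130 CPM over the 12 livers, and its group means differed by at most 1.13-fold. Urod, which trims the side chains of uroporphyrinogen, ranged from 48.1 to 78.9 CPM, with group means from 57.1 in hCAR/hPXR to 65.3 in WT CITCO livers. Cpox, which returns the pathway to the mitochondrion, ranged from 146 to 238 CPM, with means from 187 ± 20.9 in Car KO/hPXR to 216 ± 32.7 in WT CITCO livers (SD, n = 3). In these 3 genes the ranges of all 4 groups overlapped.

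Fech, ferrochelatase, inserts iron into protoporphyrin to finish heme. It was at 64.1, 61.6 and 79.3 CPM in WT CITCO and at 46.4, 61.2 and 58.5 CPM in Car KO/hPXR livers, and these groups did not overlap, as in 14.2% of all genes in that comparison. The unadjusted p was 0.153 and the adjusted p 0.682, so the difference was not called. Corn oil livers were at 62.5, 50.3 and 56.7 CPM and hCAR/hPXR livers at 77.3, 47.5 and 67.6 CPM.

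Uros and Ppox were too low for a firm statement. Uros, which closes the porphyrin ring, had 2 to 27 counts a library and group means from 6.43 ± 2.75 CPM in corn oil to 10.9 ± 6.87 CPM in WT CITCO livers. Ppox, which oxidises protoporphyrinogen, had 5.55 to 22.2 counts and means from 6.66 ± 1.60 CPM in Car KO/hPXR to 10.2 ± 5.48 CPM in corn oil livers. For these genes the 95% intervals of the differences reached 3.80-fold, so that they bound these genes less closely than the others.

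Ppox lies 55.3 kb from Nr1i3, the locus that carries the engineered CAR alleles, and its exons share 791 bases with those of B4galt3 on the opposite strand. Whether counting used the strand is not given in the sources used here, so their reads may not be fully separate; B4galt3 had 10.5 to 59 counts a library. Of the 10 tested genes within 100 kb of Nr1i3, Ppox included, 2 were called in any of the 6 comparisons, in each of which 0.0465% to 0.989% of all genes were called. At an unadjusted p under 0.05 were 16 of their 60 differences, none of them of Ppox, where 5.6% to 10.9% of all genes had such a p in a comparison. The 2 called genes were Tomm40l and Pcp4l1. Tomm40l, which overlaps Nr1i3, had a log2 fold change of -4.67 in Car KO/hPXR against corn oil (adjusted p = 0.0483). Pcp4l1 was at 4.16 in hCAR/hPXR against Car KO/hPXR (adjusted p = 0.0413). The antisense gene over Alas1, 4930500F10Rik, had 0 counts in 11 of 12 libraries and 1 in the other.

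**Figure D4:**
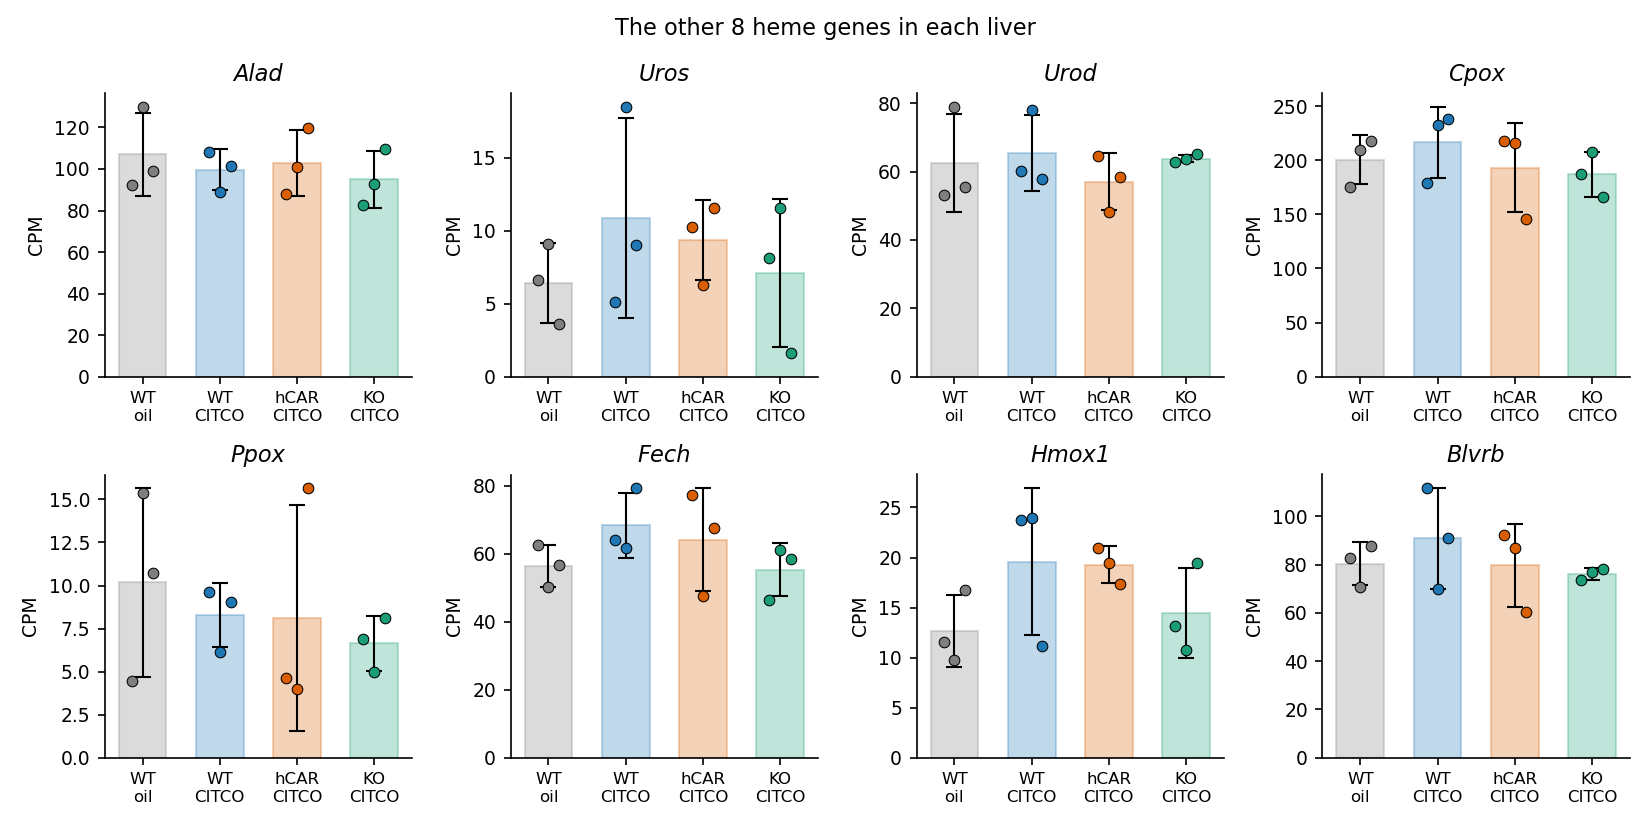
The other 8 members in each liver, as CPM (vertical axes, each from 0, on different scales), for WT corn oil (WT oil), WT CITCO, hCAR/hPXR CITCO (hCAR) and Car KO/hPXR CITCO (KO). Points are mice, bars means and error bars SD (n = 3); the groups overlap in nearly all panels, with Fech in Car KO/hPXR against WT CITCO and Hmox1 in hCAR/hPXR against corn oil as the 2 exceptions.

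Of the breakdown genes, Hmox1, the inducible heme oxygenase, was at 11.5, 9.77 and 16.7 CPM in corn oil livers and at 23.7, 24.0 and 11.1 CPM in WT CITCO livers. It was at 21.0, 19.5 and 17.3 CPM in hCAR/hPXR and at 13.2, 10.7 and 19.5 CPM in Car KO/hPXR livers. The hCAR/hPXR livers were all above the corn oil livers, as in 16.2% of all genes in that comparison, and the other groups overlapped. That difference had an unadjusted p of 0.0827 and an adjusted p of 0.551, on 14 to 28 counts a library in corn oil and 21 to 41 in hCAR/hPXR livers.

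Kupffer cells and other macrophages also hold heme oxygenase. The 12 markers of these cells summed to 313 to 382 CPM in corn oil, 385 to 568 in WT CITCO, 483 to 608 in hCAR/hPXR and 419 to 439 in Car KO/hPXR livers, and none was at 0 in all libraries. In WT CITCO against corn oil 11 of the 12 were higher with 0 called, where 0.233% of all genes were called. In hCAR/hPXR against corn oil 9 were higher with 1, Marco, called (0.989% of all genes). In Car KO/hPXR against corn oil 10 were higher with 0 called (0.0465% of all genes). At an unadjusted p under 0.05 were 4, 5 and 0 markers in these comparisons, all higher. The shares of all genes with such a p were 9.13%, 10.9% and 5.6%. The part of these cells in the Hmox1 and Alas1 values was not tested.

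Blvrb, a reductase of biliverdin and flavins that is abundant in red cells and liver, ranged from 60.2 to 112 CPM. Its group means lay between 76.1 ± 2.38 CPM in Car KO/hPXR and 90.8 ± 20.9 CPM in WT CITCO livers (SD, n = 3), and all groups overlapped.

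Over these 8 members and 6 comparisons, 0 of 48 differences had an unadjusted p under 0.05. In a comparison, 5.6% to 10.9% of all genes had such a p. By edgeR or by DESeq2, 0 were called, where edgeR called 0.0465% to 0.989% of all genes in a comparison. At such shares, the absence of calls says little about these 8 genes. All 48 intervals included 0. For Alad, Urod, Cpox, Fech and Blvrb the log2 fold changes ran from -0.31 to 0.27, and no bound of their 95% intervals passed 1.67-fold. A change of 2-fold in those 5 genes thus lay outside all 30 intervals, whereas for Hmox1 the farthest bound was 2.51-fold.

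**Figure D5:**
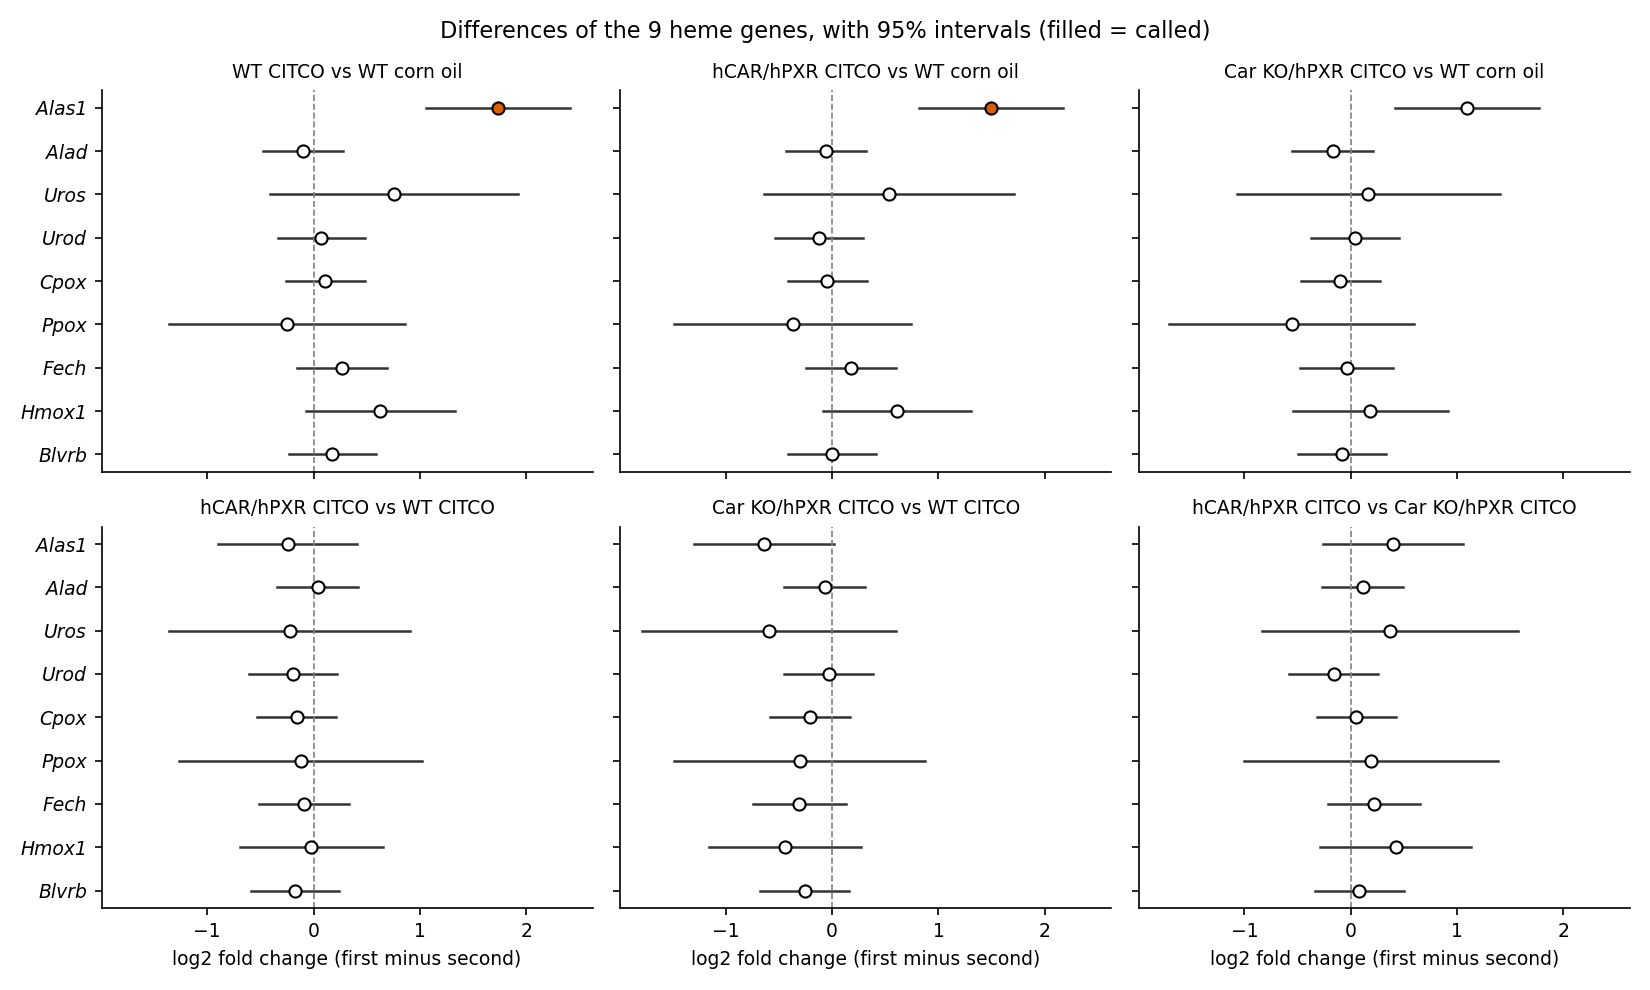
Log2 fold changes of the 9 members (vertical axis) in the 6 comparisons, first group minus second (horizontal axis), with 95% intervals from edgeR's fit of 12 libraries; filled points were called. Alas1 against corn oil is the 1 gene whose interval leaves out 0, in all 3 comparisons of the upper row, and the intervals of Uros and Ppox are the widest.

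Other genes of heme metabolism were read from a list. Of 12 genes for synthesis and mitochondrial transport, all tested, 1 was called in 1 comparison, where 0.989% of all genes were called. Alas2, the synthase of red cell precursors, was lower in hCAR/hPXR than in corn oil livers by 1.01 on the log2 scale (log2 fold change -1.01, adjusted p = 0.0265). In the other comparisons, 0.0465% to 0.582% of all genes were called. Alas2 was at 226, 276 and 206 CPM in corn oil, and at 97.8, 161 and 90.7 CPM in hCAR/hPXR livers. It was at 166, 185 and 159 CPM in WT CITCO and at 122, 107 and 174 CPM in Car KO/hPXR livers. Every liver given CITCO was thus below every corn oil liver. Such an absence of overlap was seen in 11.6% to 16.2% of all genes in those comparisons. The red cell markers, Alas2 among them, summed to 1847 to 2172 CPM in hCAR/hPXR and 2277 to 3857 CPM in corn oil livers. In WT CITCO livers they summed to 1975 to 3963 CPM and in Car KO/hPXR livers to 2125 to 3397 CPM. Ahsp was at 0 throughout. All 6 red cell markers that were tested were lower in hCAR/hPXR than in corn oil livers, 1 of them called (Alas2), where 0.989% of all genes were called. The 2 synthases thus had opposite directions in that comparison. Against WT CITCO livers all 6 markers were also lower in hCAR/hPXR livers, with 0 called here (0.407% of all genes). The study itself lists Hba-a2 and Hbb-bs as lower in hCAR/hPXR than in WT CITCO livers. The part of the red cell content was not tested. The median of the 12 synthesis and transport genes lay between -0.18 and 0.18 on the log2 scale in all 6 comparisons.

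The liver secretes proteins that bind what red cells release. Hp, haptoglobin, which binds free hemoglobin, was at 1383, 1495 and 1442 CPM in corn oil, 3512, 2591 and 1594 in WT CITCO, 6064, 3150 and 3115 in hCAR/hPXR and 1348, 1247 and 1301 in Car KO/hPXR livers. It rose 2.86-fold in hCAR/hPXR over corn oil (adjusted p = 0.00722) and 3.17-fold over Car KO/hPXR livers (adjusted p = 0.00600). Hpx, hemopexin, which binds free heme, rose in hCAR/hPXR over corn oil livers (adjusted p = 0.0486), with 4471, 1958 and 4143 CPM against 1547, 1663 and 1392 CPM. Both are also acute-phase proteins. Among the 11 of 13 breakdown, scavenging and transport genes that were tested, these 2 were the only ones called in any of the 6 comparisons. The share of all genes called in a comparison was 0.0465% to 0.989%. Ugt1a1, which conjugates bilirubin, was listed at 0 in 8 of 12 libraries and shares 1311 exon bases with other Ugt1a genes on its strand. The study lists it as raised in hCAR/hPXR over WT CITCO livers, presumably from a nearly absent baseline. Ugt1a1 was at 0, 45.2 and 94.8 CPM in hCAR/hPXR livers and at 0 in all WT CITCO livers. In corn oil livers it was at 118, 0 and 0 CPM, and in Car KO/hPXR livers at 0, 0 and 83.7 CPM. No difference is given for it here.

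Hmox2 and Blvra, other enzymes of breakdown, were named after their values were seen. Hmox2, the constitutive heme oxygenase, had means from 38.6 to 45.8 CPM, and Blvra, the main biliverdin reductase of adults, from 8.12 to 14.6 CPM. Neither was called in any comparison.

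Iron genes did not pass the test either. In the 6 comparisons 0 of 14 tested were called, where 0.0465% to 0.989% of all genes were called. In each comparison 1 to 5 had an unadjusted p under 0.05, against 5.6% to 10.9% of all genes. The 5 were in hCAR/hPXR against corn oil, 3 higher and 2 lower, where 10.9% of all genes had such a p. The study itself lists Slc40a1, an iron-regulated transporter, as lower in hCAR/hPXR than in WT CITCO livers. Here Slc40a1 was at 89.1, 76.7 and 106 CPM in the former and 123, 240 and 142 CPM in the latter, without a call. Tfrc, the transferrin receptor, named after its values were seen, was at 35.9, 25.2 and 38.8 CPM in hCAR/hPXR livers and at 7.31 to 22.3 CPM in the other 9, without overlap, as in 13.7% to 16.2% of all genes in those 3 comparisons, and its adjusted p ran from 0.108 to 0.264 against the 3 other groups. The most abundant were Trf, transferrin, with group means from 14216 to 18590 CPM, the ferritin chains Ftl1, from 2752 to 3055 CPM, and Fth1, from 1026 to 1422 CPM, and Cp, ceruloplasmin, from 932 to 1187 CPM.

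Of 10 listed regulators, Nr1i3 and Nr1i2 were called lower in the humanised lines and 1 other gene was called. A comparison had 0.0465% to 0.989% of all genes called. Nr1d1, REV-ERBα, a clock repressor that acts on Alas1 among other genes, was at 91.7, 75.4 and 72.8 CPM in corn oil, 22.4, 34.2 and 55.6 in WT CITCO, 45.6, 54.4 and 98.9 in hCAR/hPXR and 87.2, 143 and 124 in Car KO/hPXR livers. It was 3.15-fold higher in Car KO/hPXR than in WT CITCO livers (adjusted p = 0.0297), and its log2 fold change in WT CITCO against corn oil was -1.10 (adjusted p = 0.193). The order of its group means, from the lowest, was WT CITCO, hCAR/hPXR, corn oil and Car KO/hPXR. That of Alas1 was corn oil, Car KO/hPXR, hCAR/hPXR and WT CITCO. The part of Nr1d1 in the Alas1 values was not tested. The hour of tissue collection is not given in the sources used here, and the part of that hour was not tested either.

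Bach1, a heme-sensing repressor of Hmox1 named after its values were seen, was at 30.6, 30.7 and 27.5 CPM in corn oil and at 46.8, 58.9 and 61.9 CPM in WT CITCO livers, without overlap, as in 14.7% of all genes (log2 fold change 0.91, adjusted p = 0.130). It was at 55.3, 40.1 and 46.2 CPM in hCAR/hPXR and at 42.7, 55.4 and 31.7 CPM in Car KO/hPXR livers. These livers too were all above the corn oil livers, as in 16.2% and 11.6% of all genes without overlap. The other abundant regulators, Hnf4a, Keap1 and Foxo1, had group means from 108 to 130, from 63.1 to 94.3 and from 54.3 to 67.6 CPM and were not called. Of 12 targets of NRF2, the activator of Hmox1 under oxidative stress, 9 were tested. Gstm3, also on the list of CAR and PXR targets, was the 1 called, higher in hCAR/hPXR than in WT CITCO (5.93-fold, adjusted p = 0.00204) and in corn oil livers (4.74-fold, adjusted p = 0.00466). The shares of all genes called there were 0.407% and 0.989%, and 0.0465% to 0.582% in the other comparisons.

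The genes whose pattern was nearest to Alas1 were sought over the 12 livers by the root mean square difference of log2 CPM, each gene centred on its own mean. They were Sap130, Eed, Rnf215, Cpne8 and Pcsk5, at distances of 0.45 to 0.51, where Alas1 itself varied by 0.86 about its mean. Their group means were between 3.25 and 23.5 CPM. Nearest to Hmox1 were Dr1, Ets2, Pdia5, Rprd2 and Snrnp70, at 0.21 to 0.24, where Hmox1 varied by 0.42. These are descriptions over the same libraries and depths, with no test.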

How the data were processed

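RNAseq of liver was analysed for 12 mice, grouped by the sample labels (3 per group). The authors trimmed reads with Trimmomatic, aligned them with STAR 2.5.2 to the Ensembl annotation of GRCm38, and used RSEM 1.3; the expected counts they deposited cover 51912 genes and are not normalized. They also deposited log2-scale values from DESeq2's variance-stabilising transformation (17859 genes). RSEM divides reads that fit several genes; 9.34% of values of detected genes were not whole. Counts were rounded and tested in R 4.3.3 with edgeR 4.0.16: expression filter, TMM, and the quasi-likelihood test on all 12 libraries, 1 mean per group, for 6 pairwise comparisons and a 4-group test. Intervals are 95%, from the log2 fold change and its SE,. The threshold for a call was a fold change over 1.5 together with an adjusted p under 0.05 (Benjamini and Hochberg); the steps were tested on simulated data.

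The study's methods give CITCO at 10 or 50 mg/kg for such treatments, and 3 mice per group. Members and lists were chosen with earlier results of these data known, and the lists were not drawn up as independent evidence. Text names all 9 members, with log2 fold changes for Alas1 and for members with an unadjusted p under 0.05. Of a list, it names the genes called and at most 4 others by level. It also names genes from the study's own list or after their values were seen. Cell type markers were listed for hepatocytes, red cells, macrophages, neutrophils, endothelial cells, cholangiocytes and stellate cells. Alternatives were DESeq2 size factors, DESeq2 1.42.0, limma 3.58.1 on the deposited log2 values, a fit of 2 groups, other filters, a replicate block and leaving out each library. Same-numbered samples of different groups did not deviate together (correlations -0.059 to 0.074), so numbers were not taken as pairs.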

Additional observations from a re-analysis of the deposited data

How the results depend on the processing

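Direction was followed for the log2 fold changes of Alas1 alone, and none reversed in the 13 alternatives of each comparison. Of all 331 repeated values, 291 kept their call or count. Among them are counts of called members and 4-group tests, which have no direction. The 4-group tests of the other members did not pass in any alternative. Alas1 in WT CITCO against corn oil fell short in a fit of only those 2 groups (log2 1.73, adjusted p = 0.0574; 0 members called), and with 1 library left out ran from 1.39 to 2.18, with 0 to 1 members called. Against corn oil, hCAR/hPXR livers fell short in the fit of 2 groups (log2 1.49, adjusted p = 0.0527; 0 called), and ran from 1.13 to 1.94 with 1 library left out, with 0 to 1 called. With no filter on low counts Alas1 passed in Car KO/hPXR against WT CITCO (log2 -0.66, adjusted p = 0.0327; 1 member called) and against corn oil (log2 1.07, adjusted p = 1.00e-05; 1 called); the cause was not tested. The 4-group test called 0 to 1 members with 1 library left out, and Alas1 lost its call there without 9 of the 12 libraries (adjusted p from 0.0520 to 0.116). With a replicate block Alas1 was at log2 1.79 (adjusted p = 0.0119) in WT CITCO and 1.59 (adjusted p = 0.0131) in hCAR/hPXR livers, both against corn oil; the block changed no call of a member. Over all genes, dropping the filter moved the calls most, from 20 to 184 in WT CITCO against corn oil, from 35 to 184, 22 to 227, 50 to 235, 85 to 265 and 4 to 95 in the other comparisons (hCAR/hPXR and Car KO/hPXR against WT CITCO, each other, and corn oil in turn), and from 122 to 544 in the 4-group test. Leaving out 1 library gave as few as 6, 17, 5, 10 and 25 calls, in the same order up to hCAR/hPXR against corn oil, and 60 in the 4-group test. The list results were not repeated under the alternatives. Depth limits Uros, Ppox and Hmox1 most.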
